A study of Homo sapiens with 12 samples.

Results

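The bone morphogenetic protein (BMP) genes examined here are 10 named genes of the BMP signaling pathway, out of 56593 distinct gene symbols in the expression table. They were taken by symbol, from a list of names drawn up with earlier results of these data known: the ligands BMP2, BMP4 and BMP7, the receptors BMPR1A and BMPR2, the pseudoreceptor BAMBI, and the inhibitors of DNA binding ID1, ID2, ID3 and ID4. RNA-seq was carried out on H1, an established human embryonic stem cell line, and in 3 populations isolated from differentiating H1 cultures by surface proteins, with 3 libraries for each of the 4 populations. Per the labels, the cultures received 40 ng/ml activin A and 50 ng/ml BMP4 for 2 days, then 40 ng/ml VEGF and 50 ng/ml bFGF for 6 days, while the methods of the study give the doses of activin A and BMP4 the other way around. APLNR+ mesoderm cells were taken at day 2, at the end of the activin A and BMP4 treatment. CD31+CD34+ hemogenic endothelial progenitors (HEPs) were taken at day 5 and CD43+ hematopoietic progenitor cells (HPCs) at day 8, both in the VEGF and bFGF phase. The H1 libraries came from undifferentiated cells. All populations derive from a single cell line, and nothing in the labels says that replicates were separate cultures. The methods of the study speak of independent experiments in general, without tying a library to one. The p-values measure the spread between these libraries, part of which may be technical.

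BMP ligands are secreted dimers that bring together type I receptors, such as BMPR1A, and type II receptors, such as BMPR2. The active receptor phosphorylates SMAD1, SMAD5 and SMAD9, which enter the nucleus with SMAD4 and switch on target genes, among which the ID genes are the classical example. ID proteins have a helix-loop-helix domain but no basic DNA-binding region, and they hold E proteins such as TCF3, TCF4 and TCF12 in dimers that cannot bind DNA. BAMBI resembles a type I receptor without a kinase domain, dampens the signal and is itself a target of the pathway. In the embryo, BMP signaling takes part in the formation of mesoderm and of the first blood and endothelial cells.

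The bases in front of the start sites of BAMBI and the 4 ID genes are shown because these members are known targets of the pathway. RefSeq promoters were found for 8 of the 10 members (build GRCh38.p14, which is not the build of the deposited values), and each line below holds 250 bases up to the start site, 5′ to 3′ on the strand of the gene. Capitals mark 3 motifs searched on both strands: GGCGCC, a GC-rich sequence that SMAD1 and SMAD5 can bind, the TATA box TATAAA and the CCAAT box CCAAT, which reads ATTGG on the other strand.
BAMBI: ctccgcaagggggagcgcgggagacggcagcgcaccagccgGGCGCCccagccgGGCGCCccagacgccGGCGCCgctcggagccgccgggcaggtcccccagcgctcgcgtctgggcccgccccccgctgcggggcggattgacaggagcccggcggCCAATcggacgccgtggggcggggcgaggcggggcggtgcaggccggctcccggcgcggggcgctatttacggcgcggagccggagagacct
ID1: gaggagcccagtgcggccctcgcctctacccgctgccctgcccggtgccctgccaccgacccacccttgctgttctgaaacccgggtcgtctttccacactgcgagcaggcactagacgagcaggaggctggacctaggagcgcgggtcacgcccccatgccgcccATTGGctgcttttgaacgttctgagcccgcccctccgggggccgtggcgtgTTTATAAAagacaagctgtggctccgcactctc
ID2: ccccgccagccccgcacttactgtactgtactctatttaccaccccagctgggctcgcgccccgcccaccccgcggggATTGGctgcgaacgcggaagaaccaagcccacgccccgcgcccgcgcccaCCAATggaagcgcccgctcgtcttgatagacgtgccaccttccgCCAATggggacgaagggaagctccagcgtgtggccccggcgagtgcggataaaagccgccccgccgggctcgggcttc
ID3: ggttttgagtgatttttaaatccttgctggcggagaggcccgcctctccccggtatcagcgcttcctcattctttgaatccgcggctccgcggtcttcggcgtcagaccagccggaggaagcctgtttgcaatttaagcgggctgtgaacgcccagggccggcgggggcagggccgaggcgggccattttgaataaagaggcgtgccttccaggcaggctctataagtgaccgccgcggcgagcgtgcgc
ID4: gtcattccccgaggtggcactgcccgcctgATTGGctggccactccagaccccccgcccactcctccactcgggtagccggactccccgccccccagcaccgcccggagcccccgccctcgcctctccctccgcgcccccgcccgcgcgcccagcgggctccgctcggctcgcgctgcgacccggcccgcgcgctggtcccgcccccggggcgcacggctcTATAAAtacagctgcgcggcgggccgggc

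These stretches lie at chr10:28677271-28677520 (plus strand) for BAMBI, chr20:31605039-31605288 (plus strand) for ID1, chr2:8681806-8682055 (plus strand) for ID2, chr1:23559502-23559751 (minus strand) for ID3 and chr6:19837120-19837369 (plus strand) for ID4. BAMBI held GGCGCC 3 times, at 209 to 204, 196 to 191 and 181 to 176 bases before the start, and none of the 4 ID promoters held it in this window. Of 35116 promoter windows of the same length, 16.4% held the GC-rich motif, 10.7% the TATA box and 32.0% the CCAAT box. A TATA box stood at 29 to 24 bases before the start of ID4, and in ID1 a pair of overlapping matches, 1 on each strand, covered 33 to 26 bases before it. The CCAAT box occurred 3 times in ID2 and once each in BAMBI, ID1 and ID4, and ID3 had none of the 3 motifs. Among the other members, the GC-rich motif occurred in 1 of the 3 BMP4 promoters and in the BMPR2 promoter. These matches describe the letters of the windows only.

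The values are FPKM, fragments scaled to the length of the transcript and the mapped total of the library, so levels of different genes can be set side by side. FPKM carries no read totals. Summed FPKM ranged from 568036 to 1576040 over the libraries, and from 673098 to 1576040 within APLNR+ cells. The folds, sums and levels below use FPKM as deposited, without rescaling of libraries. Relative depth was estimated from the most frequent ratio of low FPKM values of shared genes between a library and CD43+ replicate 3. It ranged from 0.555 to 1.27 of that library, and replicate 1 was the shallowest library of every population. The populations carried the markers of their labels: 4 pluripotency genes summed to 1378 to 1447 FPKM in H1 and 38.0 to 44.6 FPKM in CD43+ cells, 5 mesoderm genes to 525 to 571 FPKM in APLNR+ cells, 5 hemogenic endothelial genes to 427 to 588 FPKM in CD31+CD34+ cells, and 5 hematopoietic genes to 681 to 739 FPKM in CD43+ cells. The pluripotency genes still summed to 400 to 452 FPKM in APLNR+ and 109 to 141 FPKM in CD31+CD34+ cells. Most of these sums was POU5F1, at means of 354 and 84.35 FPKM, followed by DPPA4 at 61.3 and 39.0 FPKM. SOX2 averaged 43.0 FPKM in H1, 0.269 FPKM in APLNR+ and 0.0327 FPKM in CD31+CD34+ cells. NANOG averaged 48.6, 9.32 and 4.51 FPKM in the same populations. The mesoderm genes summed to 388 to 437 FPKM in CD31+CD34+ cells. Most of both mesoderm sums was the sorting gene APLNR, at means of 383 FPKM in APLNR+ and 403 FPKM in CD31+CD34+ cells. MIXL1 and EOMES averaged 71.3 and 56.5 FPKM in APLNR+ cells, against 1.10 and 4.14 FPKM in CD31+CD34+ cells. Most of the hematopoietic sum of CD43+ cells was ITGA2B, at a mean of 575 FPKM, and PTPRC, a leukocyte marker, averaged only 0.197 FPKM there. The hemogenic endothelial genes still summed to 236 to 317 FPKM in CD43+ cells, with 5 of 5 at 1 FPKM or more. PECAM1 was higher in CD43+ than in CD31+CD34+ cells, at 95.9 against 55.2 FPKM, while CD34, CDH5, KDR and TEK were lower. An exact 0 in this table can be a failed estimate, since EEF1A1, a translation factor gene needed by all cells, stood at 0 in 6 libraries. No library listed a member at 0, and all 10 members passed the filter of 1 FPKM in at least 3 libraries.

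Of the 3 consecutive steps, the first held most of the rises. From H1 to APLNR+ cells, 7 of the 10 members were called higher and 0 lower, where a call needs 2 things, a limma adjusted p below 0.05 and a difference of 2-fold or more in FPKM + 1, taken as log2. Over all 14840 genes tested, 8.3% were called higher and 7.62% lower at this step. The median log2 change was 2.63 over the 10 members and -0.12 over all genes. The 3 members not called were BMP7, BMPR1A and ID3. In bulk libraries, fewer cells that express a gene and less RNA per cell cannot be told apart.

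The step from APLNR+ to CD31+CD34+ cells split the group. ID1 and ID3 were called higher, BMP2, BMP4, BMPR1A and ID4 lower, and the other 4 were not called, against 12.5% of all genes called higher and 17.1% lower. The median log2 change was -0.59 over the members and -0.01 over all genes. At the step from CD31+CD34+ to CD43+ cells, 7 members were called lower and 0 higher, against 8.79% and 5.58% of all genes, with a median of -1.25 over the members and -0.00 over all genes. The comparisons share populations, so a high value in a middle population enters both the rise before it and the fall after it.

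**Figure D1:**
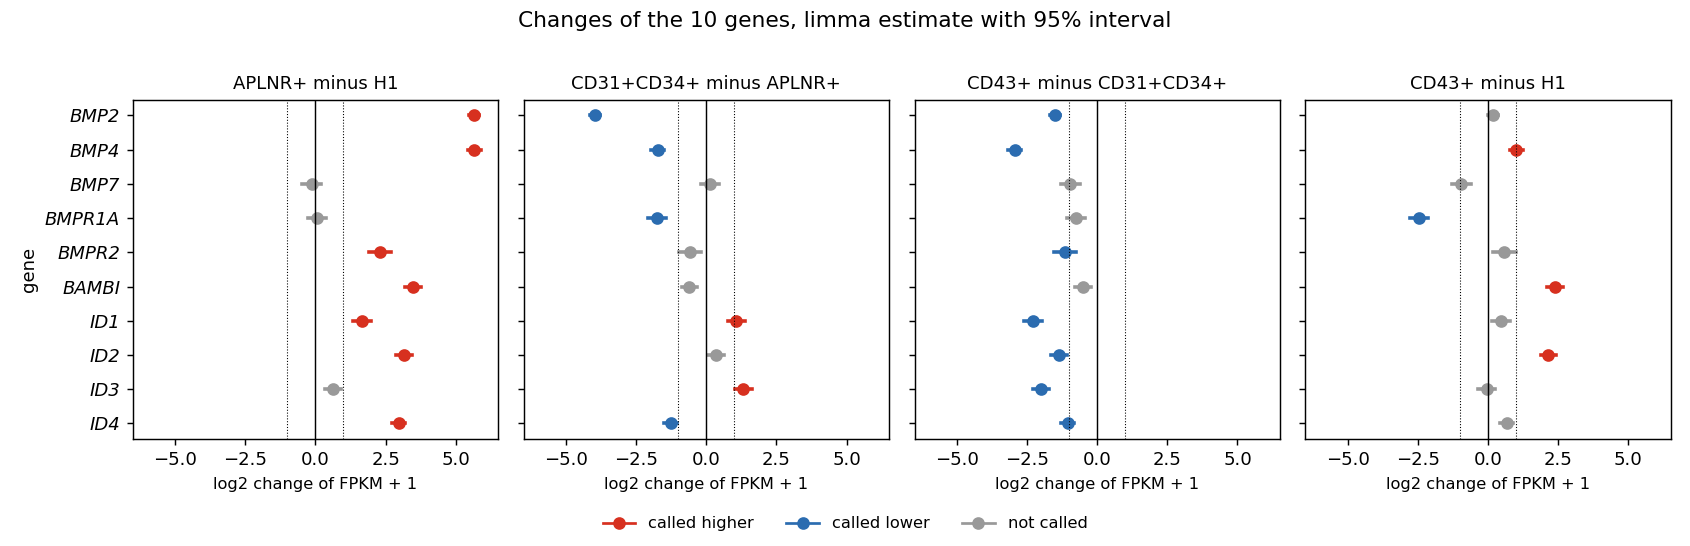
Log2 change of FPKM + 1 (x axis) of the 10 genes (y axis) in 4 comparisons, as limma estimates (points) with 95% intervals (bars) from 3 libraries a population; dotted lines mark a 2-fold change. Red genes were called higher (7 in the first panel) and blue genes lower (7 in the third panel), and in the last panel, CD43+ minus H1, 3 genes were called higher and 1 lower.

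Among the ligands, BMP2 and BMP4 peaked together in APLNR+ cells and fell at both later steps. BMP2 was read at 0.507, 0.404 and 0.440 FPKM in the 3 H1 libraries and at 70.2, 71.5 and 72.1 FPKM in APLNR+ cells. It stood at 3.77, 3.51 and 3.62 FPKM in CD31+CD34+ cells and at 0.698, 0.544 and 0.710 FPKM in CD43+ cells. The 4 populations did not overlap, and CD43+ cells lay just above H1. Mean FPKM of BMP2 was 158-fold higher in APLNR+ cells than in H1 (log2 change 5.64 ± 0.08, SE, limma adjusted p 4.62e-13), then 19.6-fold lower in CD31+CD34+ cells (log2 change -3.96, adjusted p 7.16e-12) and a further 5.59-fold lower in CD43+ cells (log2 change -1.49, adjusted p 2.65e-08). Between CD43+ cells and H1 the log2 difference of BMP2 was 0.19, with a 95% interval from 0.01 to 0.37, and missed the threshold (adjusted p 0.0591).

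BMP4, the ligand also added to the cultures as protein, was read at 1.21, 0.763 and 0.663 FPKM in H1 and at 94.3, 96.8 and 89.8 FPKM in APLNR+ cells. Its values were 27.7, 28.4 and 26.8 FPKM in CD31+CD34+ cells and 2.61, 2.80 and 2.88 FPKM in CD43+ cells. Each population again formed its own level, with H1 lowest. The rise from H1 was 107-fold in mean FPKM (log2 change 5.67 ± 0.10, SE, adjusted p 2.11e-12). The fall to CD31+CD34+ cells was 3.38-fold (log2 change -1.72, adjusted p 3.2e-08) and the fall to CD43+ cells 10.01-fold (log2 change -2.93, adjusted p 8.03e-10). CD43+ cells stayed above H1 by 1.01 on the log2 scale (adjusted p 2.2e-06), and this call was lost, at 0.97, 0.93 and 0.99, without H1 replicate 2, H1 replicate 3 or CD43+ replicate 3, respectively.

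The balance of BMP2 and BMP4 also differed between populations. In H1 the ratio of BMP4 to BMP2 was 1.93 ± 0.437 and in APLNR+ cells 1.31 ± 0.0591, against 7.62 ± 0.418 for the CD31+CD34+ and 4.31 ± 0.738 for the CD43+ population (mean of library ratios ± SD, n = 3). The ratios of H1 and CD43+ cells rest on low values, with BMP2 at 0.404 to 0.507 and 0.544 to 0.710 FPKM, respectively. The libraries of neighbouring stages did not overlap, which gives an exact two-sided permutation p of 0.1, the minimum for 3 against 3 libraries.

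BMP7, a ligand known from kidney and bone formation, was low throughout. It was read at 2.11, 2.20 and 1.54 FPKM in H1, at 1.28, 1.68 and 2.14 FPKM in the APLNR+ libraries and at 2.14, 2.37 and 1.41 FPKM in the CD31+CD34+ libraries. These 3 populations overlapped, and only the CD43+ libraries, at 0.582, 0.576 and 0.389 FPKM, lay apart. From H1 to APLNR+ cells its log2 change was -0.13 (95% interval -0.47 to 0.20, adjusted p 0.481). The difference from CD31+CD34+ to CD43+ cells, -0.96 on the log2(FPKM + 1) scale (adjusted p 0.000225), fell short of 2-fold, although mean FPKM was 3.83-fold lower. It was called with a pseudocount of 0.1, at -1.74, and without CD31+CD34+ replicate 3, at -1.10.

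**Figure D2:**
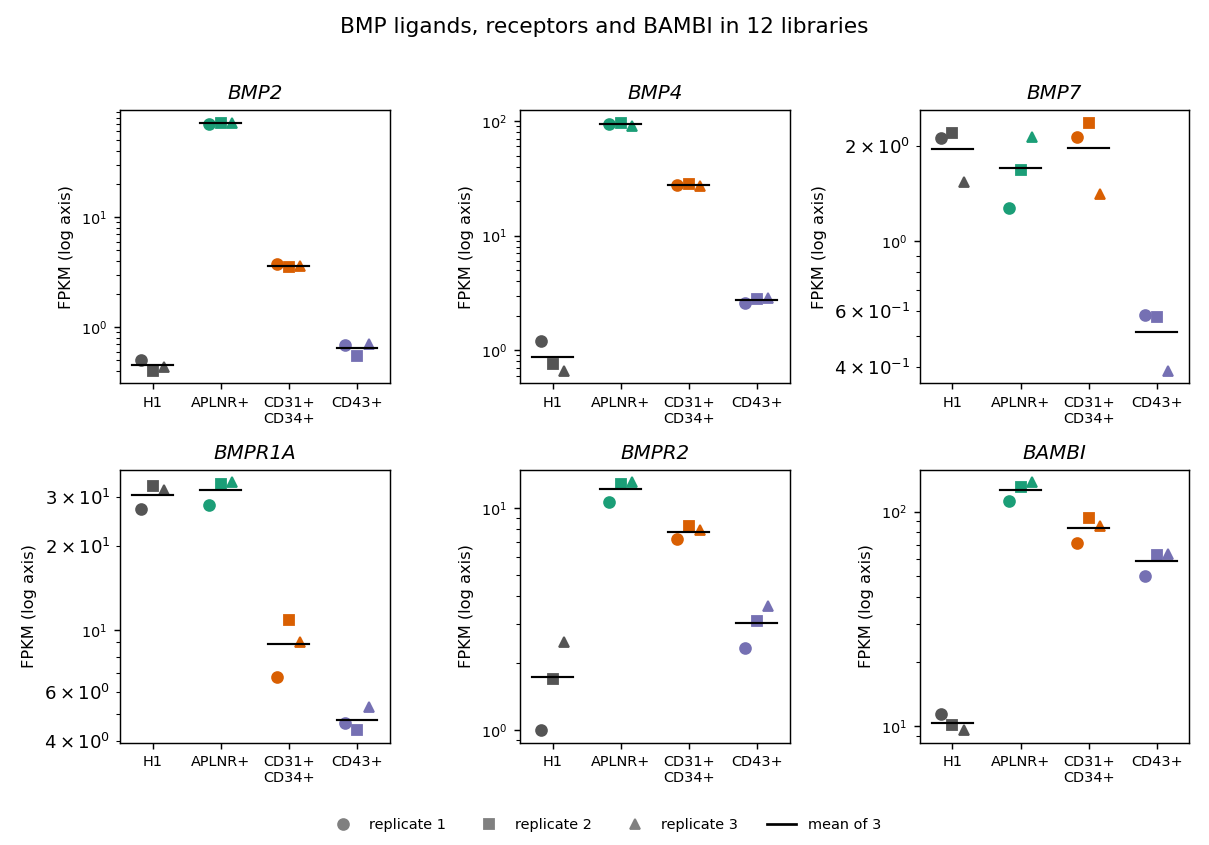
FPKM (y axis, log scale) of BMP2, BMP4, BMP7, BMPR1A, BMPR2 and BAMBI in each of 12 libraries by population (x axis), with marker shapes for the 3 replicates and a line at their mean. BMP2, BMP4, BMPR2 and BAMBI had their highest mean in APLNR+ cells, and BMP7 stood apart only in CD43+ cells, at 0.389 to 0.582 FPKM.

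The receptors followed different courses. BMPR1A, a type I receptor for BMP2 and BMP4, was read at 27.1, 32.7 and 31.9 FPKM in H1 and at 27.9, 33.4 and 33.9 FPKM in APLNR+ cells. In CD31+CD34+ cells it stood at 6.74, 10.8 and 9.02 FPKM and in CD43+ cells at 4.62, 4.36 and 5.28 FPKM. H1 and APLNR+ cells overlapped and both lay above the later populations. The log2 change of BMPR1A from H1 to APLNR+ cells was 0.05 (95% interval -0.27 to 0.38, adjusted p 0.787). It then fell by 1.75 on the log2 scale to CD31+CD34+ cells (adjusted p 5.27e-07), and the further difference to CD43+ cells of -0.76 (adjusted p 0.000971) was under 2-fold. CD43+ cells carried 6.43-fold less BMPR1A than H1 in mean FPKM (log2 change -2.45 ± 0.15, SE, adjusted p 1.57e-08). Of the 50-base stretches of the BMPR1A transcripts in GENCODE 29, 12.4% also occur in other genes, the pseudogene BMPR1AP1 foremost with 7.03%, and how reads were split between them is not given in the sources used here.

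BMPR2, the type II partner, was called higher at the first step and lower at the last. It was read at 1.00, 1.71 and 2.50 FPKM in H1 and at 10.6, 12.8 and 13.05 FPKM in APLNR+ cells. CD31+CD34+ cells had 7.21, 8.30 and 7.93 FPKM and CD43+ cells 2.35, 3.09 and 3.62 FPKM. CD43+ cells overlapped H1, and the other populations stood clear of both. BMPR2 rose 7.01-fold in mean FPKM from H1 to APLNR+ cells (log2 change 2.30 ± 0.18, SE, adjusted p 5.23e-07). The difference to CD31+CD34+ cells was -0.58 (adjusted p 0.0134), under 2-fold, and the fall from there to CD43+ cells was -1.14 (adjusted p 0.000233).

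The ratio of BMPR1A to BMPR2 was 19.7 ± 7.15 in H1 and 2.61 ± 0.0159 in APLNR+ cells, and came to 1.13 ± 0.185 for CD31+CD34+ and 1.61 ± 0.306 for CD43+ cells (mean of library ratios ± SD, n = 3). Neighbouring stages did not overlap (exact two-sided permutation p 0.1, the minimum).

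BAMBI joined the rise but kept much of it. It was read at 11.3, 10.2 and 9.58 FPKM in H1 and at 112, 130 and 137 FPKM in APLNR+ cells. CD31+CD34+ libraries had 71.6, 93.0 and 86.0 FPKM and CD43+ libraries 50.1, 62.9 and 63.5 FPKM. Every differentiated library lay above every H1 library, and replicate 1, the shallowest, was the lowest of each differentiated population. BAMBI rose 12.2-fold from H1 to APLNR+ cells (log2 change 3.49 ± 0.13, SE, adjusted p 4.4e-10). Neither later step reached 2-fold, at -0.60 (adjusted p 0.00111) and then -0.50 (adjusted p 0.00573) on the log2 scale. CD43+ cells held 5.67-fold more BAMBI than H1 in mean FPKM (log2 change 2.39, adjusted p 5.21e-09).

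Of the ID genes, ID1, ID2 and ID4 rose at the first step, and ID1, ID2 and ID3 had their highest means a stage later than BMP2 and BMP4, in CD31+CD34+ cells. ID1 was read at 101, 72.7 and 71.7 FPKM in H1 and at 293, 242 and 237 FPKM in APLNR+ cells. It reached 589, 552 and 488 FPKM in CD31+CD34+ cells and stood at 111, 123 and 100.07 FPKM in CD43+ cells. Only CD43+ cells and H1 overlapped. ID1 rose 3.14-fold from H1 to APLNR+ cells (log2 change 1.65 ± 0.14, SE, adjusted p 1.18e-06) and 2.11-fold more to CD31+CD34+ cells (log2 change 1.08, adjusted p 2.83e-05). This second call was lost under quantile normalization, at 0.87. It fell 4.87-fold to CD43+ cells (log2 change -2.27, adjusted p 8.5e-08).

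ID2, which also takes part in lymphoid development, was read at 11.8, 12.4 and 12.4 FPKM in H1 and at 107, 129 and 117 FPKM in APLNR+ cells. Its values were 137, 159 and 152 FPKM in CD31+CD34+ cells and 47.2, 69.8 and 58.2 FPKM in CD43+ cells. No populations overlapped. ID2 rose 9.64-fold at the first step (log2 change 3.16 ± 0.13, SE, adjusted p 1.1e-09), the most of ID1, ID2 and ID3. The difference from APLNR+ to CD31+CD34+ cells was 0.34 on the log2 scale (adjusted p 0.0289) and under 2-fold, and under quantile normalization it was 0.0764 (adjusted p 0.448). The change to CD43+ cells was -1.35 (adjusted p 2.84e-06). CD43+ cells kept 4.79-fold the mean FPKM of H1 (log2 change 2.15, adjusted p 1.44e-08). The antisense gene ID2-AS1 overlaps ID2, with at most 1.89 FPKM in any library, and whether the counting used strand is not given in the sources used here.

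ID3 was called higher at the second step instead of the first. It was read at 34.9, 34.9 and 31.9 FPKM in H1 and at 54.8, 58.9 and 45.8 FPKM in APLNR+ cells. It stood at 127, 149 and 127 FPKM in CD31+CD34+ cells and at 30.4, 40.2 and 28.5 FPKM in CD43+ cells. CD43+ cells overlapped H1, and APLNR+ cells lay between these and CD31+CD34+ cells. The first difference, 0.63 ± 0.13 on the log2 scale (SE, adjusted p 0.00161), was under 2-fold, and the second was called (log2 change 1.33, adjusted p 2.45e-06). The fall to CD43+ cells was 4.07-fold (adjusted p 1.31e-07). The difference between CD43+ cells and H1 was -0.05, with a 95% interval from -0.34 to 0.24 (adjusted p 0.755).

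ID4 was the lowest of the 4 and had the order of BMP2 and BMP4 instead. It was read at 1.30, 0.993 and 0.980 FPKM in H1 and at 15.6, 14.1 and 16.3 FPKM in APLNR+ cells. Its values fell to 6.05, 6.18 and 5.22 FPKM in CD31+CD34+ cells and 2.09, 2.28 and 2.53 FPKM in CD43+ cells. The populations did not overlap. ID4 rose 14.1-fold from H1 to APLNR+ cells (log2 change 2.97 ± 0.10, SE, adjusted p 3.05e-10) and fell by 1.26 to CD31+CD34+ cells (adjusted p 4.14e-07). The fall to CD43+ cells, -1.05 (adjusted p 4.24e-06), lost its call with replicates 2 and 3 alone, at -0.98.

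**Figure D3:**
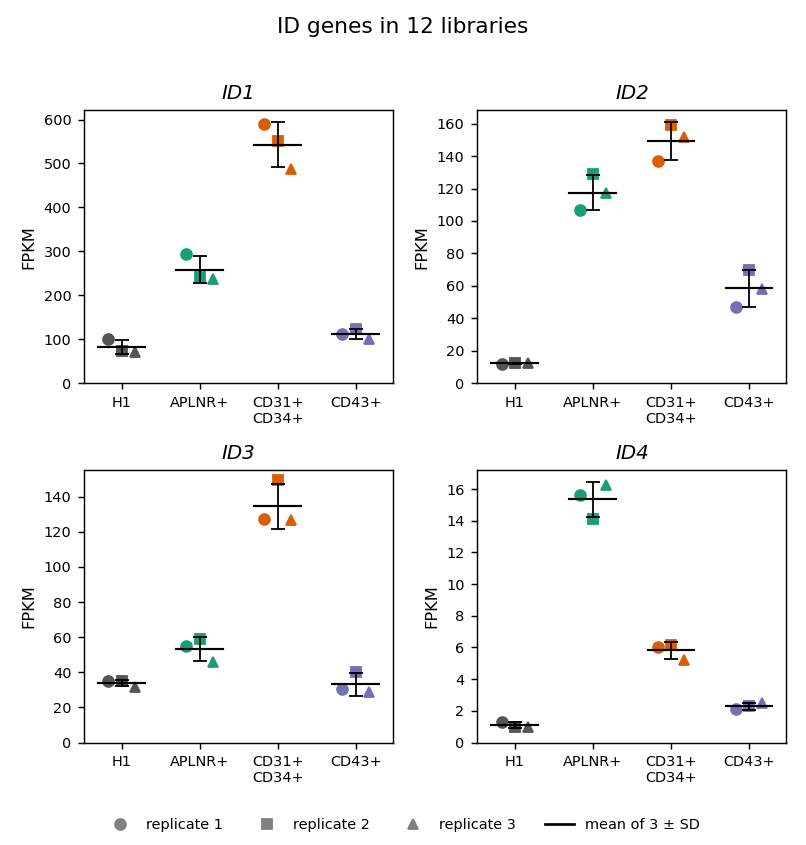
FPKM (y axis, linear from 0) of ID1, ID2, ID3 and ID4 in each of 12 libraries by population (x axis), with marker shapes for the replicates and lines for the mean ± SD of 3. ID1, ID2 and ID3 were highest in CD31+CD34+ cells, at means of 543, 149 and 135 FPKM, and ID4 in APLNR+ cells, at 15.3 FPKM.

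Summed over the 4 ID genes, FPKM averaged 129 ± 17.5 in H1 and 443 ± 26.8 in APLNR+ cells, and 833 ± 53.2 and 205 ± 26.3 in the CD31+CD34+ and CD43+ populations, respectively (SD, n = 3), with no overlap. ID1 held the largest share of this sum in every library, from 52.4% to 68.6%. The share of ID2 was 9.58% ± 1.47 in H1 and 26.6% ± 3.40 in APLNR+ cells, and 18.0% ± 1.91 in CD31+CD34+ and 28.4% ± 3.20 in CD43+ cells. That of ID3 was 26.5% ± 2.81 in H1, 11.98% ± 1.16 in APLNR+ cells, and 16.2% ± 1.22 and 16.0% ± 1.01 in the CD31+CD34+ and CD43+ populations, which overlapped (exact permutation p 0.9). ID4 made up 3.47% of the sum in APLNR+ cells and from 0.698% to 1.13% elsewhere.

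**Figure D4:**
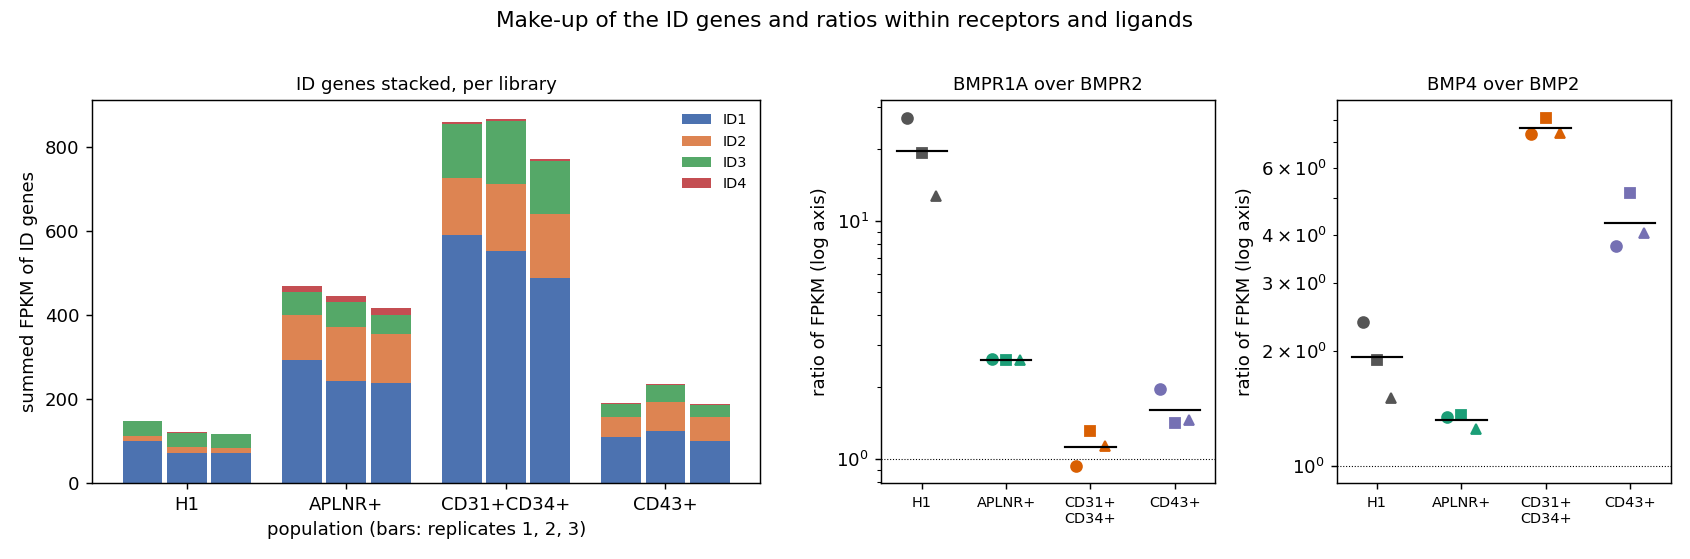
Left, FPKM of ID1 to ID4 stacked for each library, 3 bars a population (replicates 1, 2 and 3); middle and right, the ratios of BMPR1A to BMPR2 and of BMP4 to BMP2 in FPKM (log axes), with marker shapes for replicates 1 (circle), 2 (square) and 3 (triangle), a line at the mean of 3 and a dotted line at a ratio of 1. The ID sum averaged 833 FPKM in CD31+CD34+ cells against 129 in H1, and the receptor ratio averaged 19.7 in H1 and 2.61 in APLNR+ cells.

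Set in order of mean level, BMP2, BMP4, BMPR2, BAMBI and ID4 ran from APLNR+ through CD31+CD34+ and CD43+ cells to H1. ID1 and ID2 ran from CD31+CD34+ through APLNR+ and CD43+ cells to H1, and ID3 the same way with H1 above CD43+ cells. Neighbours in these orders that missed the adjusted p threshold were CD43+ cells and H1 for BMP2 and ID3, H1 and APLNR+ cells for BMPR1A, and the first 3 populations for BMP7. Neighbours that passed it but differed by under 2-fold on the log2(FPKM + 1) scale were APLNR+ and CD31+CD34+ cells for BMPR2, BAMBI and ID2, CD31+CD34+ and CD43+ cells for BAMBI and BMPR1A, CD43+ cells and H1 for BMPR2, ID1 and ID4, and APLNR+ cells and CD43+ cells for BMP7. APLNR+ cells and H1 were such a pair for ID3 (log2 difference 0.63). In mean FPKM, ID4 was 2.11-fold higher in CD43+ cells than in H1 and BMP7 3.29-fold lower in CD43+ than in APLNR+ cells, and with a pseudocount of 0.1 both were called, at 1.02 and -1.54.

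Across the whole course, from H1 to CD43+ cells, BMP4, BAMBI and ID2 were called higher and BMPR1A lower, against 14.6% of all genes higher and 22.5% lower. BMP7 was 3.79-fold lower in mean FPKM, and its log2 change of -0.96 (adjusted p 0.000107) was called with a pseudocount of 0.1, at -1.74, and without H1 replicate 3, at -1.06. From H1 to CD31+CD34+ cells, 8 members were called higher and BMPR1A lower, against 16.9% and 23.2% of all genes. From APLNR+ to CD43+ cells, 8 members were called lower and 0 higher, against 19.4% and 14.1% of all genes, with BMP7 and ID3 the members not called. Of these 8, the calls of ID2 (log2 change -1.01) and BAMBI (-1.09) were lost without CD43+ replicate 1, at -0.87 and -0.98. That of ID2 was also lost without APLNR+ replicate 2, at -0.94, and with replicates 2 and 3 alone, at -0.93.

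Markers of other cell types moved with these steps. The 4 smooth muscle and stromal genes (ACTA2, COL1A1, PDGFRB and MYH11) summed to 10.5 to 12.9 FPKM in H1, 23.6 to 26.8 FPKM for APLNR+, 99.9 to 119 FPKM for CD31+CD34+ and 58.5 to 80.1 FPKM for CD43+ cells, with 3 of 4 at 1 FPKM or more in each differentiated population and MYH11, the defining contractile gene, under 0.1 FPKM there. COL1A1 made up most of the stromal sum in CD31+CD34+ cells, at 85.0 FPKM, and averaged 19.2 FPKM in CD43+ cells. ACTA2 instead rose from 13.3 to 34.8 FPKM at that step (log2 change 1.32, adjusted p 3.51e-05). PDGFRB averaged 13.2 and 17.5 FPKM and was not called there. The 4 endoderm genes summed to 7.78 to 9.18, 17.7 to 20.3, 24.2 to 31.9 and 6.31 to 7.26 FPKM from H1 to CD43+ cells. In each population 1 or 2 of them reached 1 FPKM. These genes moved in different directions. SOX17 averaged 0.0624, 17.5, 24.2 and 1.40 FPKM and made up most of the sum in the middle populations. AFP instead averaged 8.56, 0.990, 2.57 and 0.711 FPKM. TTR was highest in CD43+ cells, at 4.37 FPKM, and averaged 0.205 FPKM in CD31+CD34+ cells. FOXA2 averaged at most 0.899 FPKM. The endoderm sum of the middle populations thus rested mostly on SOX17, and does not by itself show endoderm cells. The part of these markers in the levels of ID1, ID2 and ID3 in CD31+CD34+ cells was not tested. Neural genes summed to at most 0.224 FPKM in any library, and of the 3 trophoblast markers in the table CGA and GCM1 were under 0.1 FPKM in all populations. The third, KRT7, a keratin that is also expressed outside the trophoblast, averaged 5.84, 0.976, 1.03 and 0.507 FPKM from H1 to CD43+ cells and was called lower at the first step (log2 change -1.81, adjusted p 7.23e-06).

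To place the members in the pathway, 52 further BMP pathway genes were examined, of which 37 passed the filter and the other 15 reached at most 1.15 FPKM in any library. Of the 37, 5 (BMP6, GDF6, CHRD and CHRDL1 among them) passed through a single population, so the filter itself fixed where they were highest, and the counts that follow include them as a description. From H1 to APLNR+ cells 18 of the 37 were called higher and 2 lower, with a median log2 change of 0.94. From APLNR+ to CD31+CD34+ cells 8 were called higher and 8 lower (median -0.11), and from CD31+CD34+ to CD43+ cells 0 higher and 17 lower (median -0.85). The shares of all genes called at each step are those given for the members.

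Of 11 other ligands 3 passed the filter, BMP6 and GDF6 through the CD31+CD34+ libraries alone. BMP6, a ligand active in iron metabolism, averaged 0.701, 0.133, 3.37 and 0.528 FPKM from H1 to CD43+ cells. BMP10, a ligand of ACVRL1, averaged 0.00403, 0.133, 5.16 and 1.57 FPKM. BMP10, which also reached 1 FPKM in CD43+ cells, was called higher at the second step (log2 change 2.41, adjusted p 5.39e-08) and lower at the third (-1.24, adjusted p 3.32e-05). GDF6 averaged 0.0589, 0.229, 1.03 and 0.366 FPKM.

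Of 7 other receptors and co-receptors, 4 were called higher and 1 lower at the first step. ACVRL1, the type I receptor of endothelial cells known as ALK1, averaged 0.194 FPKM at the start and 2.64 FPKM in APLNR+ cells, then 87.9 ± 6.08 FPKM in the CD31+CD34+ and 21.0 ± 2.94 FPKM in the CD43+ population (SD, n = 3). Its log2 change was 4.63 from APLNR+ to CD31+CD34+ cells (adjusted p 3.06e-10), while BMPR1A fell by 1.75. ENG, the endothelial co-receptor endoglin, went from 0.662 to 11.9 FPKM at that step (log2 change 2.96, adjusted p 1.15e-10). The type II receptor ACVR2A rose to 12.1 FPKM at day 2 (log2 change 1.12, adjusted p 2.85e-05) and fell to 2.87 FPKM at day 5 (log2 change -1.77, adjusted p 3.03e-07). Of the further BMP type I receptors, ACVR1 rose from 1.81 to 5.59 FPKM at the first step (log2 change 1.23, adjusted p 1.76e-06), and BMPR1B, at no more than 0.846 FPKM in any library, was left out by the filter.

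The extracellular antagonists and modulators held the largest changes of the list. At the first step 6 of 10 were called higher and 1 lower, and at the second 2 higher and 5 lower. BMP1, a protease that cleaves the antagonist chordin, was among those called higher at both, with means of 0.481, 2.04 and 12.6 FPKM. CER1, a secreted inhibitor of BMP and Nodal ligands, averaged 2238 ± 67.4 FPKM in APLNR+ cells, against 1.74 FPKM before in H1 and 1.83 FPKM after in the CD31+CD34+ population (log2 changes 9.68 and -9.64, adjusted p 1.27e-11 and 1.33e-11). FST, which binds activin and BMPs, averaged 2.46, 67.2, 3.15 and 0.106 FPKM over the 4 populations, and NOG, the BMP antagonist noggin, 0.0676, 7.18, 2.61 and 0.161 FPKM. BMPER, a modulator of BMP4 in endothelial cells, instead averaged 0.395, 80.4, 143 and 10.9 FPKM, and its log2 change was 5.87 at the first step and -3.60 at the last (adjusted p 1.85e-12 and 1.6e-10). CHRDL1, which passed the filter through H1 alone, was the antagonist called lower at the first step, from 5.20 to 0.832 FPKM.

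Among the SMAD genes, those of the inhibitors held most of the calls. SMAD1, SMAD5 and SMAD4 were called at none of the 3 consecutive steps, and SMAD9 was called once, from 0.156 FPKM in H1 to 2.26 FPKM in APLNR+ cells (adjusted p 8.11e-07). SMAD6, an inhibitory SMAD that BMP signaling induces, averaged 2.07 ± 0.489, 67.1 ± 3.96, 108 ± 11.7 and 41.8 ± 6.00 FPKM (SD, n = 3). Its log2 changes were 4.48 at the first step (adjusted p 8.91e-11), 0.67 at the second, under 2-fold, and -1.35 at the third (adjusted p 4.94e-06), so that its means stood in the same order as those of ID1 and ID2. SMAD7, which inhibits both the BMP and the TGF-beta branch, averaged 9.04, 21.5, 23.8 and 2.29 FPKM and was called higher at the first step (log2 change 1.15) and lower at the third (-2.92, adjusted p 1.44e-09).

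Of 6 other target genes, 4 were called higher at the first step, 2 at the second, and 5 lower at the third. HAND1, a transcription factor of extraembryonic and lateral mesoderm, averaged 0.0569, 44.9, 22.6 and 1.59 FPKM, with log2 changes of 5.43 at the first step and -3.19 at the third (adjusted p 3.61e-11 and 5.34e-09). MSX2, a homeobox gene, averaged 0.122, 24.4, 13.4 and 2.00 FPKM (log2 change 4.50 at the first step, adjusted p 6e-12). The study had picked HAND1 and MSX2 as candidates partly for their fall from HEPs to HPCs. It places HAND1 downstream of TGF-beta signaling. MSX1 and HEY1 were the targets called higher in CD31+CD34+ than in APLNR+ cells, and HEY1, also a target of Notch, averaged 6.53 FPKM in CD31+CD34+ and 6.65 FPKM in CD43+ cells.

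Of the E proteins, the partners of ID proteins, a single gene was called. TCF3 and TCF12 were called at no consecutive step, and TCF4 averaged 43.6 ± 11.3, 130 ± 36.5, 41.9 ± 15.6 and 44.0 ± 12.9 FPKM (SD, n = 3), with calls at the first step (log2 change 1.54, adjusted p 0.00159) and the second (-1.64, adjusted p 0.000674). The summed ID level over the summed level of TCF3, TCF4 and TCF12 was 0.936 ± 0.277 in H1 and 1.97 ± 0.557 in APLNR+ cells. It was 5.31 ± 0.938 and 1.75 ± 0.308 in the CD31+CD34+ and CD43+ populations (SD, n = 3). Replicate 1, the shallowest library, gave the highest ratio of each population, at 1.25, 2.61, 6.38 and 2.09 from H1 to CD43+ cells. It also had the lowest TCF4 and TCF12 of each population.

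**Figure D5:**
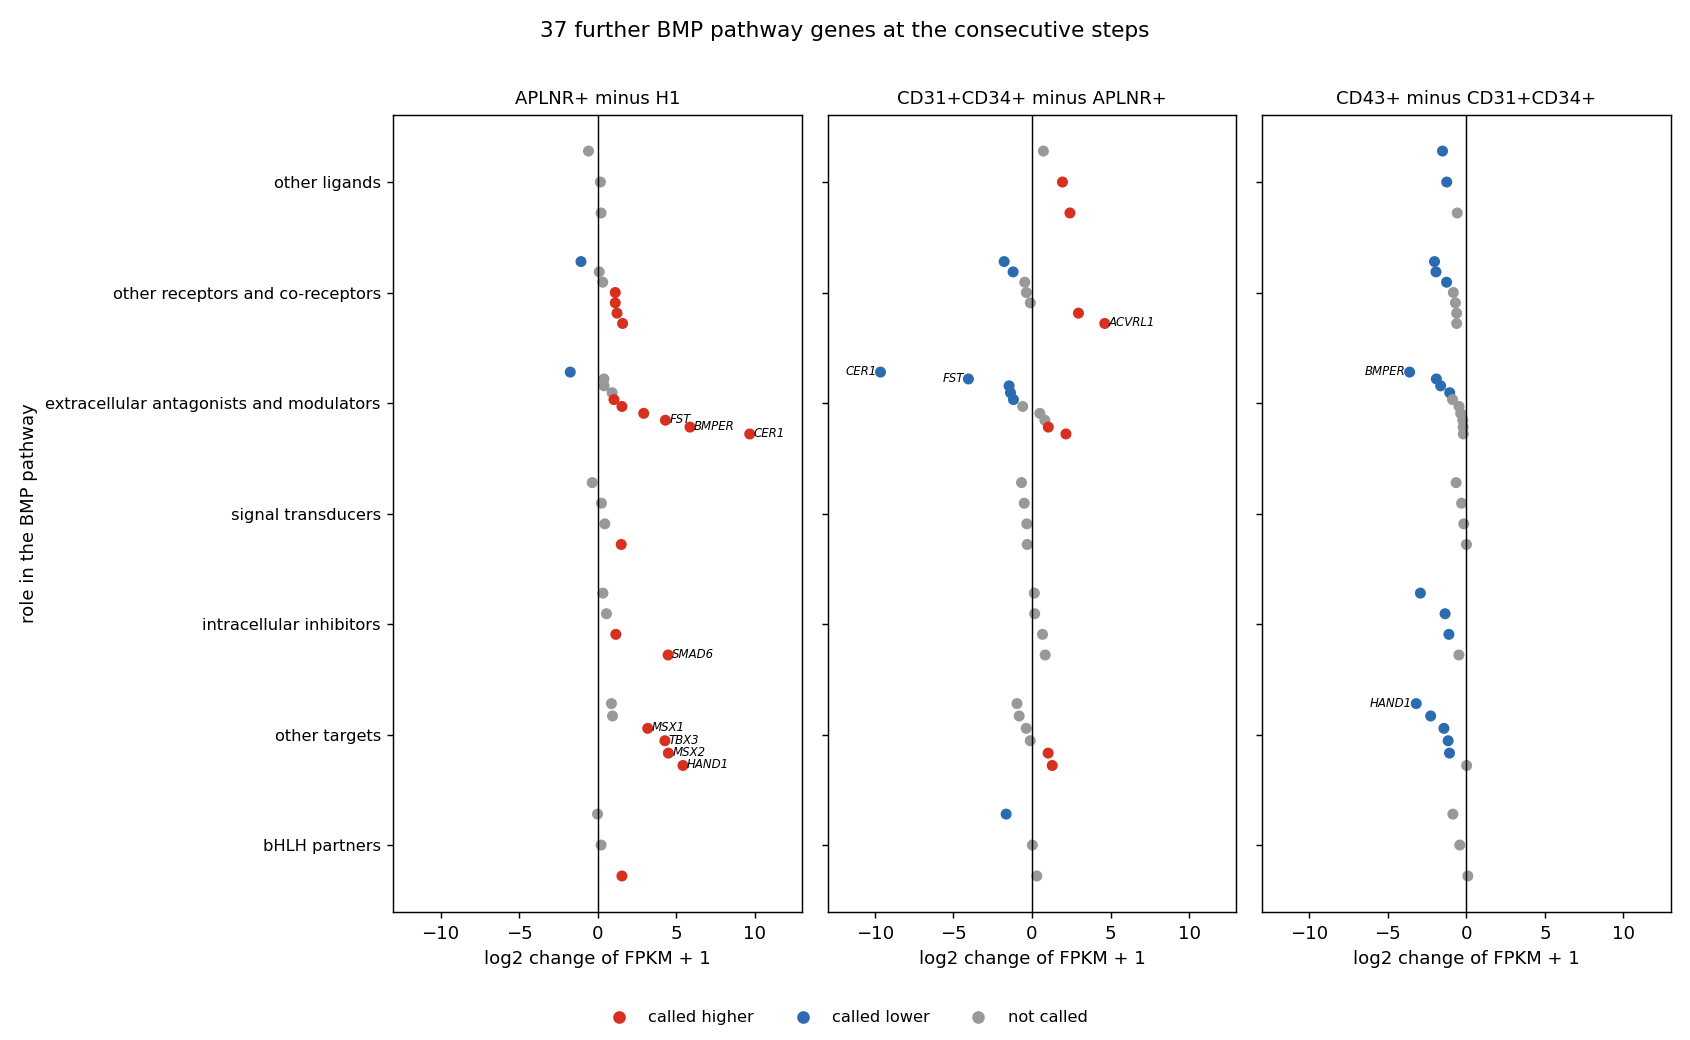
Log2 change of FPKM + 1 (x axis) at the 3 consecutive steps for 37 BMP pathway genes beside the 10 members, grouped by role (y axis); each point is a gene, colored by its call, and genes with a log2 change of 3 or more in either direction are named. CER1 had log2 changes of 9.68 and -9.64 at the first 2 steps, and in the third panel 17 genes were called lower and 0 higher.

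The genes most like each member in pattern were taken by Pearson correlation of log2(FPKM + 1) over the 12 libraries, among 7709 genes with a population mean of at least 10 FPKM. With 4 populations of 3 libraries each, such a correlation mostly reflects the 4 population means, and it is given as a description. BMP2 was closest to NPPB, a natriuretic peptide gene (r = 0.998), and to ROR2, a Wnt5a receptor (0.997). BMP4 was closest to ANKRD1 (0.993) and ANXA1 (0.992), and ANXA1 also led for ID4 (0.995). BAMBI was closest to the Notch target HES1 (0.996), which averaged 6.21, 53.2, 40.6 and 29.9 FPKM. ID1 was closest to PTK7 and to SOCS3, an inhibitor of cytokine signaling (both 0.995), ID2 to PRTG (0.995), ID3 to TMSB10 (0.987) and ID4 next to PLXNA2 (0.994). BMPR1A was closest to CENPF, a kinetochore gene of dividing cells (0.995), BMPR2 to GNAI1 (0.983) and BMP7, the member with the least distinct pattern, to ASAP3 (0.931).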

How the data were processed

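Groups and replicate numbers came from the sample titles. The authors deposited FPKM values in 1 table, whose columns were matched to samples by title. The submitters' processing notes name BWA, Bowtie, RSEM and the build hg19, with no version, and which annotation or scaling was used is not given in the sources used here, nor which of the sequencing companies named in the methods made which library. FPKM holds no counts, so absolute depth is unknown and no count model was used.

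Of 58366 lines, 1 line of text was left out, and for 345 symbols on several lines, no listed gene among them, the highest line by mean was used. Genes at 1 FPKM or more in at least 3 libraries (14840) were fitted as log2(FPKM + 1) to the 4 populations in a single model with limma 3.58.1 in R 4.3.3 (eBayes with trend), and p-values were adjusted by Benjamini-Hochberg over all genes of a comparison. The scale understates changes of low genes. Adjusted p values of single genes come from this model, and a call needs an adjusted p under 0.05 and 2-fold. Fold values are ratios of mean FPKM. Simulated data were used to test the fit. Exact two-sided permutation tests used scipy 1.17.1. Promoters were RefSeq's and transcripts GENCODE's. Python 3.11.15 and matplotlib 3.10.9 were used for ratios and figures.

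All 10 members were named in full, the pathway genes by the largest called changes in each role, and like-patterned genes by correlation. The members and lists were chosen with earlier results of these data known. Alternatives were another pseudocount, other filters, 2 scalings, a replicate block, other fits and leaving out each library.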

Additional observations from a re-analysis of the deposited data

How the results depend on the processing

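The members called at the 3 consecutive steps, 7, 6 and 7, numbered from 7 to 7, 6 to 6 and 7 to 8 without any 1 library. Of the alternatives for single members, 1333 kept direction and side of the threshold, 9 lost a call, 19 gained one and 13 changed sign, all 13 for differences under 0.2 on the log2 scale that were not called. For BMP7 in CD31+CD34+ cells against H1, the log2 change of 0.00 became -0.000244 with a pseudocount of 0.1 and -0.000696 with replicates 2 and 3 alone, and ran from -0.10 to 0.15 without 1 library. With replicates 2 and 3 alone BMP7 also gave 0.0249 in APLNR+ cells against H1 and -0.0256 in CD31+CD34+ against APLNR+ cells. ID3 in CD43+ cells against H1 gave 0.0548 under upper-quartile scaling, 0.0266 under quantile normalization and 0.0219 with replicates 2 and 3 alone, and ran from -0.194 to 0.0475 without 1 library. BMPR1A in APLNR+ cells against H1 ran from -0.0295 to 0.140 without 1 library.

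Without a minimum change, 8 members instead of 4 passed in CD43+ cells against H1. The genes called among all tested rose then from 2363 to 8594 (APLNR+ against H1), 4400 to 10948 (CD31+CD34+ against APLNR+), 2133 to 7961 (CD43+ against CD31+CD34+), 5501 to 11076 (CD43+ against H1), 5955 to 11473 (CD31+CD34+ against H1) and 4982 to 10995 (CD43+ against APLNR+). A pseudocount of 0.1 called 3632 and 3605 genes in APLNR+ against H1 and in CD43+ against CD31+CD34+ cells. A mean of at least 5 FPKM, which drops BMP7 and tests fewer genes, called 1193 and 1313 there, 3309 in CD43+ against H1, 3752 in CD31+CD34+ against H1 and 3080 in CD43+ against APLNR+ cells. Quantile normalization moved the median of all genes in CD43+ cells against H1 from -0.10 to 0.02.

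Libraries of the same number had correlations of their deviations from -0.0214 to 0.429, 17 of 18 above 0 and 12 above 0.1, against -0.404 to 0.289 for different numbers. Since not every pair passed 0.1, the numbers were not taken to pair the samples, and a library correlated best with its own number in 23 of 36 cases. Replicate 1 stood apart in all populations. Between populations, replicate 1 correlated with replicate 1 at 0.196 to 0.429, and with replicates 2 and 3 at -0.404 to -0.0611. Replicate 2 correlated with replicate 3 of other populations at 0.0213 to 0.289. Replicate 1 was also the shallowest library of each population. No label names a batch, and the source of this pattern was not tested. With the replicate block 2369, 4410, 2140, 5506, 5960 and 4995 genes were called in the 6 comparisons, in the order above, and the members called were as many as without it. Precision is limited by 3 libraries a population.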
